A study of Mus musculus with 3 samples.

Results

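NF-kB is a family of dimeric transcription factors built from 5 subunit genes, and its inhibitors hold the dimers in the cytoplasm of resting cells. The 10 genes described here are the subunits Nfkb1, Nfkb2, Rela, Relb and Rel, the inhibitors Nfkbia, Nfkbib and Nfkbie, the ubiquitin-editing enzyme gene Tnfaip3 and the receptor gene Tnfrsf1a. They were chosen by name, and each matched 1 of the 55573 genes in the deposited table. The data came from NIH3T3 cells, an established mouse fibroblast line, and the 3 UMI-RNAseq libraries share 1 condition. The cells were kept in DMEM with fetal bovine serum and antibiotics, and neither the labels nor the methods name a cytokine or any other stimulus. Before lysis the cells were treated with trypsin and washed, and the effect of this step on the levels was not tested. With 1 condition, no group of libraries could be compared with another, and what follows is the level of each gene, its spread and its ratio to the other genes. The sources do not say whether the libraries were separate cultures, and the SDs (n = 3) and p-values may thus hold nothing but technical spread.

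In UMI-RNAseq a random tag, or UMI, marks each molecule ahead of PCR, and reads that share tag and position are kept once. Levels are given in FPKM, that is, counted fragments divided by the gene length in kilobases and scaled to 1000000 fragments per library, which allows genes of unequal length to be set side by side. The libraries held 13959723 to 14423209 counted fragments. The labels name NIH3T3 as the cell line but speak of retina in the extraction text. Of 10 fibroblast markers, 10 averaged at least 1 FPKM, from S100a4 at 2.97 to the fibronectin gene Fn1 at 4377. This limit was passed by 49.2% of protein-coding genes. Of 10 retina markers, 0 reached that limit, and their summed level was 1.01 to 1.61 FPKM per library, with recoverin (Rcvrn) the highest at 0.363 and Nrl at 0. Of 10 lymphoid and myeloid markers, 1 reached it, the lysozyme gene Lyz2 at 2.54 FPKM, and Cd3e, Cd8a, Ms4a1 and Adgre1 were at 0.

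In the textbook view of the pathway, a receptor such as TNF receptor 1 (Tnfrsf1a) activates a kinase complex that marks the inhibitor for destruction, and the freed dimer enters the nucleus. Nfkb1 and Nfkb2 encode precursors that are cut to the DNA-binding proteins p50 and p52, whereas RelA, RelB and c-Rel carry the transactivation domain. NF-kB then raises the genes of its own inhibitors, and this feedback limits the response. In fibroblasts the pathway is known for its part in the response to TNF and interleukin 1.

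Because several of these genes are known targets of the factor they encode or restrain, the bases before their starts were searched for the 10-base kappa B consensus on both strands. RefSeq start sites on GRCm38.p6 were at hand for 8 of the 10 genes, and the 250 bases before each start were searched. A match was present for 5 of these 8 genes, against 8.23% of the 27025 genes in the same table (7.25% of 32851 windows, since a gene can have several starts). The 125 bases before the RefSeq start are shown for these 5 genes, 5′ to 3′ on the gene's strand, with the bases covered by a match in capitals. RefSeq starts can differ from the GENCODE M21 gene spans given below. The bases shown for Nfkb2 and Tnfaip3 lie inside those spans and not before them.
Nfkb2 (chr19:46304612-46304736, plus strand): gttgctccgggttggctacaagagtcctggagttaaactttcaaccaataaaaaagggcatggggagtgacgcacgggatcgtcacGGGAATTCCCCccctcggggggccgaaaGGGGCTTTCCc
Rel (chr11:23770970-23771094, minus strand): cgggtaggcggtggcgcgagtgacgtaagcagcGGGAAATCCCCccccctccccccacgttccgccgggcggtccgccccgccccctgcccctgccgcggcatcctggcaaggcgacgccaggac
Nfkbia (chr12:55492648-55492772, minus strand): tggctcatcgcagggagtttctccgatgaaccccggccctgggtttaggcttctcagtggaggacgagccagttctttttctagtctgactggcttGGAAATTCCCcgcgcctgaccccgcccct
Nfkbie (chr17:45555575-45555699, plus strand): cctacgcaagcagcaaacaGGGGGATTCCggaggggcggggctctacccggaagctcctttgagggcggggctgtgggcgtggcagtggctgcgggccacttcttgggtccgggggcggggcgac
Tnfaip3 (chr10:19015411-19015535, minus strand): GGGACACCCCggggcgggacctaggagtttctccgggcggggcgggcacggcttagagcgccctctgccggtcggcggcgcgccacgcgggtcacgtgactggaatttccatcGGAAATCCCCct
Nfkb2 had 2 further start sites, each with 1 match outside the bases shown. The palindrome GGGAATTCCC of Nfkb2 was matched on both strands, and overlapping matches there and in Rel form 1 run of capitals. The run in Nfkbia is GGGAATTTCC when read on the opposite strand. The windows of Rela, Nfkbib and Tnfrsf1a, and that of another start of Tnfaip3, held no match. Of these, the windows of Nfkbib and Tnfrsf1a also lie inside the GENCODE M21 span of the gene, and that of Rela does so in part. The genes with a match were Rel at 3.30, Nfkbie at 3.40, Tnfaip3 at 5.86, Nfkb2 at 76.3 and Nfkbia at 122 FPKM on average, and those without one were Nfkbib at 28.8, Rela at 73.1 and Tnfrsf1a at 159 FPKM. The lowest 3 genes thus all held a match, while the levels of both sets overlapped above them, and no test was made. A match is a description of the letters and shows no binding.

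Each of the 10 genes averaged at least 1 FPKM, a limit passed by 23.2% of all genes listed and 49.2% of protein-coding genes. Their levels fell into an upper group of 7 genes between 28.8 and 159 FPKM and a lower group of 3 genes between 3.30 and 5.86 FPKM. From the highest to the lowest mean, the order was Tnfrsf1a, Nfkbia, Nfkb1, Nfkb2, Rela, Relb, Nfkbib, Tnfaip3, Nfkbie and Rel.

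**Figure D1:**
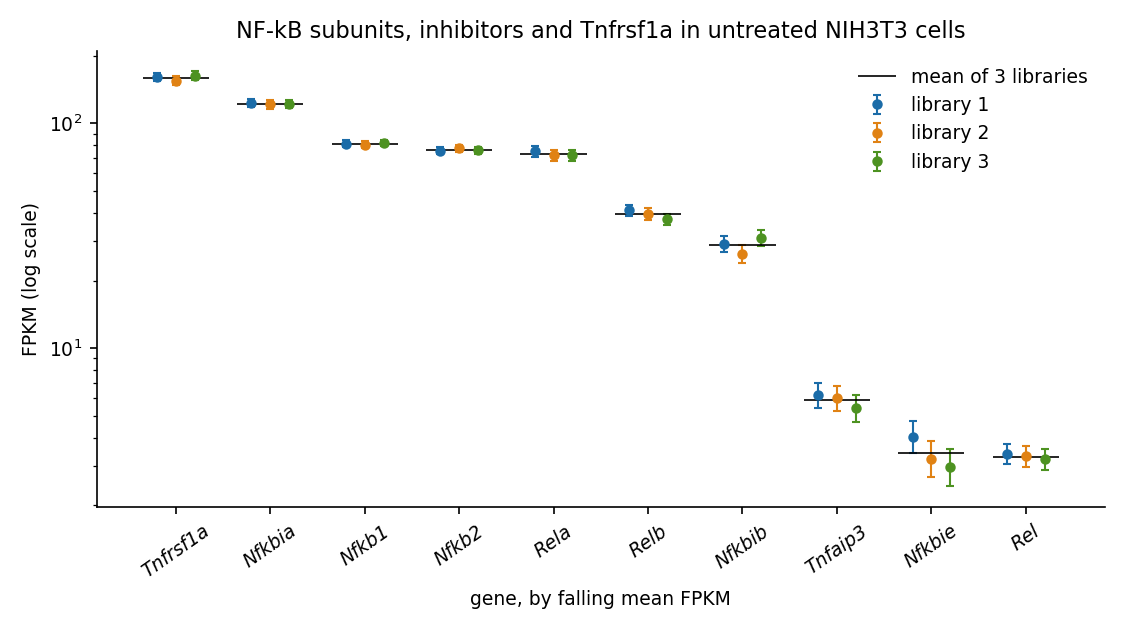
FPKM of each gene (log axis) in libraries 1, 2 and 3, with the exact Poisson 95% interval of its fragments, which covers counting error only, and the mean as a line. The first 8 genes keep their places in every library, from Tnfrsf1a near 159 to Tnfaip3 near 5.86 FPKM, while Nfkbie and Rel overlap.

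Among the subunits, Nfkb1, Nfkb2 and Rela stood at similar levels, Relb lower and Rel far lower. Nfkb1 (ENSMUSG00000028163), which encodes p105 and p50, maps to chromosome 3, 135584655 to 135691547, minus strand in GENCODE M21 on GRCm38. It measured 81.3, 80.2 and 81.7 FPKM in libraries 1, 2 and 3, with a mean of 81.1 ± 0.783 (SD, n = 3). The values differ by a factor of 1.02 at most, and they rest on 9368 fragments in all. This placed Nfkb1 at rank 1585 of the 12905 genes that averaged 1 FPKM or more.

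Nfkb2 (ENSMUSG00000025225), the gene of p100 and p52, maps to chromosome 19, 46304320 to 46312385, plus strand. Its level was 75.6, 77.3 and 76.0 FPKM, with a mean of 76.3 ± 0.875 (SD, n = 3). It is the only one of the 10 genes with its highest value in library 2. Psd lies on the opposite strand and covers 18.1% of the exon bases of Nfkb2 together with AC114539.1. Whether the counting was stranded is not given, so reads of this stretch cannot be assigned with certainty, and Psd itself had 23.7 ± 1.48 FPKM (SD, n = 3).

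Rela (ENSMUSG00000024927) encodes p65, the usual partner of p50, and maps to chromosome 19, 5637483 to 5648130, plus strand. It had 75.1, 71.9 and 72.2 FPKM, a mean of 73.1 ± 1.75 (SD, n = 3). Library 1 was the highest, and its exact Poisson 95% interval of 71.1 to 79.2 FPKM held the values of the other two.

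Relb (ENSMUSG00000002983) encodes the usual partner of p52 and maps to chromosome 7, 19606217 to 19629438, minus strand. Its values of 41.1, 39.5 and 37.4 FPKM gave a mean of 39.3 ± 1.84 (SD, n = 3). Library 1 lay above library 3 by more than counting error, with 95% intervals of 38.8 to 43.5 and of 35.2 to 39.7 FPKM that overlap only at their ends, and their spread index, defined further on, was 5.00.

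Rel (ENSMUSG00000020275) encodes c-Rel, a subunit best known from lymphocytes, and maps to chromosome 11, 23736847 to 23770970, minus strand. It measured 3.39, 3.30 and 3.20 FPKM, with a mean of 3.30 ± 0.0940 (SD, n = 3) and rank 10630 of 12905. Its 342 to 365 fragments per library place it well above a floor of 3 fragments, while the lymphoid and myeloid markers other than Lyz2 stayed at or below 0.145 FPKM on average (Cd79a, the highest of them, named after its value was seen). Whether other cells contribute to Rel was not tested.

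The deposited values allow the subunits to be read as shares of their summed level, which was 276, 272 and 271 FPKM in libraries 1, 2 and 3. Nfkb1 took 29.7% ± 0.446, Nfkb2 28.0% ± 0.536, Rela 26.8% ± 0.370, Relb 14.4% ± 0.524 and Rel 1.21% ± 0.0217 (SD, n = 3 each). Shares of transcripts do not give shares of proteins or of dimers.

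Within each library, the level of a subunit was then set against that of its usual partner or of an alternative in the dimer. Rela stood at 0.923, 0.897 and 0.884 times Nfkb1, a log2 ratio of -0.15 ± 0.03 (SD, n = 3), below Nfkb1 in 3 of 3 libraries. Relb stood at 0.543, 0.511 and 0.492 times Nfkb2, a log2 ratio of -0.96 ± 0.07. How far apart these partners lay depended on the gene length used. With the mean over protein-coding isoforms the log2 ratios were -0.26 for Rela over Nfkb1 and -0.40 for Relb over Nfkb2, and with the longest isoform -0.69 and -1.15. Whether the ratios of these pairs differ was not tested. Rel reached 0.0452, 0.0459 and 0.0444 times Rela, a log2 ratio of -4.47 ± 0.02, which the longest isoform moved to -3.32. Nfkb2 stood at 0.931, 0.964 and 0.931 times Nfkb1, a log2 ratio of -0.09 ± 0.03. In library 2 this last difference did not exceed the 95% limits of counting error.

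Among the inhibitors, most of the summed level came from Nfkbia. Nfkbia (ENSMUSG00000021025) encodes I kappa B alpha, the inhibitor that is destroyed and made again within a response, and maps to chromosome 12, 55489410 to 55492647, minus strand. It had 123, 122 and 122 FPKM, with a mean of 122 ± 0.825 (SD, n = 3) and rank 935 of 12905. Its CV of 0.675% was below the 2.25% that counting error alone gives.

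Nfkbib (ENSMUSG00000030595) encodes I kappa B beta, which is replaced more slowly, and maps to chromosome 7, 28758251 to 28767512, minus strand. Its level was 29.1, 26.2 and 30.9 FPKM, a mean of 28.8 ± 2.38 (SD, n = 3), lowest in library 2. Sirt2 and Ccer2 overlap 16.4% of its exon bases from the opposite strand, with Sirt2 at 60.8 ± 1.48 FPKM (SD, n = 3) and Ccer2 at 0 in each library. The part of these overlapping reads in the values of Nfkbib was not tested.

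Nfkbie (ENSMUSG00000023947) encodes I kappa B epsilon and maps to chromosome 17, 45555703 to 45563169, plus strand. It had 4.03, 3.22 and 2.96 FPKM, with a mean of 3.40 ± 0.557 (SD, n = 3), and rests on 151, 117 and 110 fragments. Library 1 was the highest by a factor of 1.36 over library 3. Without library 1, the mean was 3.09 FPKM.

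Of the summed level of these inhibitors, Nfkbia made up 79.2% ± 1.19, Nfkbib 18.6% ± 1.26 and Nfkbie 2.21% ± 0.345 (SD, n = 3 each). Nfkbia exceeded Nfkbib by a factor of 4.23, 4.63 and 3.93, a log2 ratio of 2.09 ± 0.12. It exceeded Nfkbie by a factor of 30.5, 37.7 and 41.1, a log2 ratio of 5.18 ± 0.22, which was 4.59 with the mean over protein-coding isoforms. Set against all 5 subunits, the summed inhibitors reached 0.565, 0.555 and 0.575 times the summed subunits, a log2 ratio of -0.82 ± 0.03. The summed FPKM of the subunits was thus above that of these inhibitors in 3 of 3 libraries, but the sums hold 5 subunit genes and only 3 inhibitor genes. This log2 ratio was -0.62 with the longest isoform and -1.01 with the mean over protein-coding isoforms. The precursors p105 and p100 also act as inhibitors and are counted here among the subunits.

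Tnfaip3 (ENSMUSG00000019850) encodes an enzyme that removes and adds ubiquitin chains on the adaptors of the TNF receptor, and like Nfkbia it is a feedback target. It maps to chromosome 10, 19000910 to 19015657, minus strand. It measured 6.19, 5.98 and 5.41 FPKM, with a mean of 5.86 ± 0.404 (SD, n = 3). These feedback genes stood far apart in these cells, and Tnfaip3 was at 0.0503, 0.0492 and 0.0444 times Nfkbia, a log2 ratio of -4.38 ± 0.10. This ratio was -5.07 with the longest isoform and -3.72 with the mean over protein-coding isoforms.

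Tnfrsf1a (ENSMUSG00000030341), the gene of TNF receptor 1, had the highest level of the 10 genes at the deposited gene lengths. It maps to chromosome 6, 125349362 to 125362484, plus strand. Its values were 161, 155 and 163 FPKM, a mean of 159 ± 4.08 (SD, n = 3), at rank 659 of 12905. The lowest library was library 2, and the values stayed within a factor of 1.05. With the longest isoform, the mean was 62.4 FPKM, below Nfkbia at 88.2 FPKM.

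For neighbours in the order of levels, the within-library ratio was compared with its spread. The order was taken from these same values, so the direction of each mean difference was set by the choice of pairs. Tnfrsf1a lay above Nfkbia by a log2 ratio of 0.38 ± 0.03, Nfkbia above Nfkb1 by 0.59 ± 0.01, and Rela above Relb by 0.89 ± 0.05 (SD, n = 3 each). Relb lay above Nfkbib by 0.45 ± 0.16, Nfkbib above Tnfaip3 by 2.29 ± 0.20, and Tnfaip3 above Nfkbie by 0.79 ± 0.15. Each of these differences was larger than its SD and exceeded the 95% limits of counting error in 3 of 3 libraries at the deposited gene lengths. With the longest isoform Tnfrsf1a over Nfkbia turned to -0.50 and Tnfaip3 over Nfkbie to -0.15, and with the mean over protein-coding isoforms Rela over Relb was 0.27. Nfkb2 lay above Rela by only 0.06 ± 0.05, which passed the counting limits in 1 of 3 libraries and was 0.72 with the longest isoform. Nfkbie and Rel could not be ordered, since their log2 ratio of 0.03 ± 0.19 was positive in library 1 and negative in libraries 2 and 3.

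The log2 ratios were tested by flipping their signs over the libraries (exact permutation test, two-sided), with p = 0.25 for 15 of the 16 distinct ratios, the 8 pairs chosen by role and the neighbours, and 0.267 after Benjamini-Hochberg adjustment over them. The same exact permutation test gave p = 1 for Nfkbie over Rel. With 3 libraries 0.25 is the smallest p this test can give, so no ratio could pass 0.05. For the neighbours, the pairs and their direction also came from the tested values.

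The order of some genes depended on the gene length in the FPKM. The authors' values matched the mean length of all annotated isoforms, short non-coding ones included. For Tnfrsf1a this mean is 844 nt over 6 isoforms of 250 to 2156 nt, so the longest isoform is 2.55 times longer. The factor was 2.23 for Rela and for Tnfaip3, 1.62 for Relb, 1.60 for Nfkbib and 1.53 for Nfkb1. It was 1.41 for Nfkb2, 1.38 for Nfkbia and 1.16 for Nfkbie, while Rel has 1 isoform of 7466 nt. Divided by the longest isoform, Nfkbia was the highest at 88.2 ± 0.596 FPKM (SD, n = 3) and Tnfrsf1a followed at 62.4 ± 1.60. Nfkb2 at 54.0 then lay level with Nfkb1 at 52.9, and Rela fell to 32.8 FPKM. At the lower end Rel at 3.30 FPKM passed Nfkbie at 2.94 and Tnfaip3 at 2.63. On this scale Rela made up 19.6% of the summed subunits in place of 26.8%. With the mean over protein-coding isoforms alone, which was added once the values were known, the order was that of the deposited values, and Relb rose to 48.1 FPKM.

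**Figure D2:**
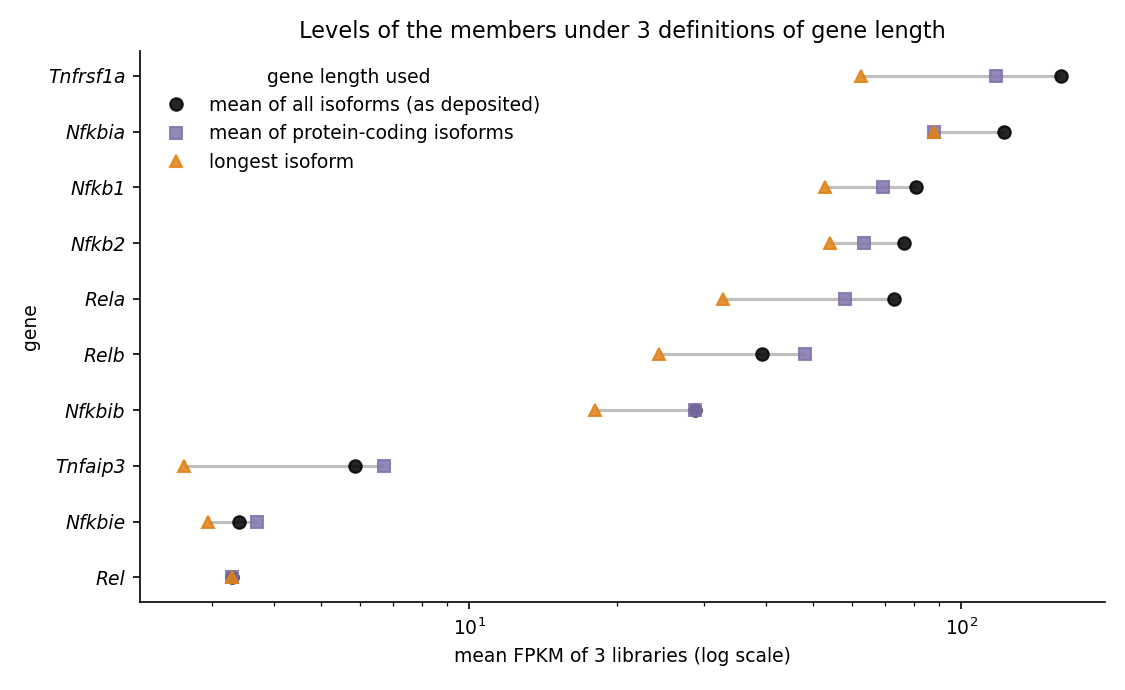
Mean FPKM of 3 libraries (log axis) for each gene, with the length taken as the mean of all isoforms, as deposited, the mean of protein-coding isoforms, or the longest isoform. With the longest isoform Nfkbia (88.2) lies above Tnfrsf1a (62.4), and Rel (3.30) above Nfkbie (2.94) and Tnfaip3 (2.63).

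The fragments behind these values were also listed without division by length, since they set the precision. Nfkb1 had the most, with 3174, 3030 and 3164 fragments, and Nfkbie the fewest. By fragments Rel rose above Tnfaip3 and Nfkbie, with 1051 fragments in all against 695 and 378. Of the 75-nt words in the isoforms of each gene, at most 0.0902% were found in transcripts of other genes, except for Nfkb2 with 13.6% and Nfkbib with 11.6%, which share them with overlapping genes named above.

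The spread between libraries was measured with an index, the chi-square of a gene's fragments against the library totals divided by its degrees of freedom, which is 1 on average under counting error alone. The index was above 1 for 5 of the 10 genes, against 42.2% of the 13643 genes with at least 30 fragments. The share is thus near that of the other genes. Since 1 is only the average, a single gene can lie above it by counting error alone. Nfkbib had the highest index at 3.58, followed by Nfkbie at 3.40, Relb at 2.51, Tnfrsf1a at 1.24 and Tnfaip3 at 1.11. The lowest was that of Nfkbia at 0.0908, below which 7.40% of genes lay. For Nfkbib, libraries 2 and 3 differed the most, and for Nfkbie and Relb libraries 1 and 3.

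**Figure D3:**
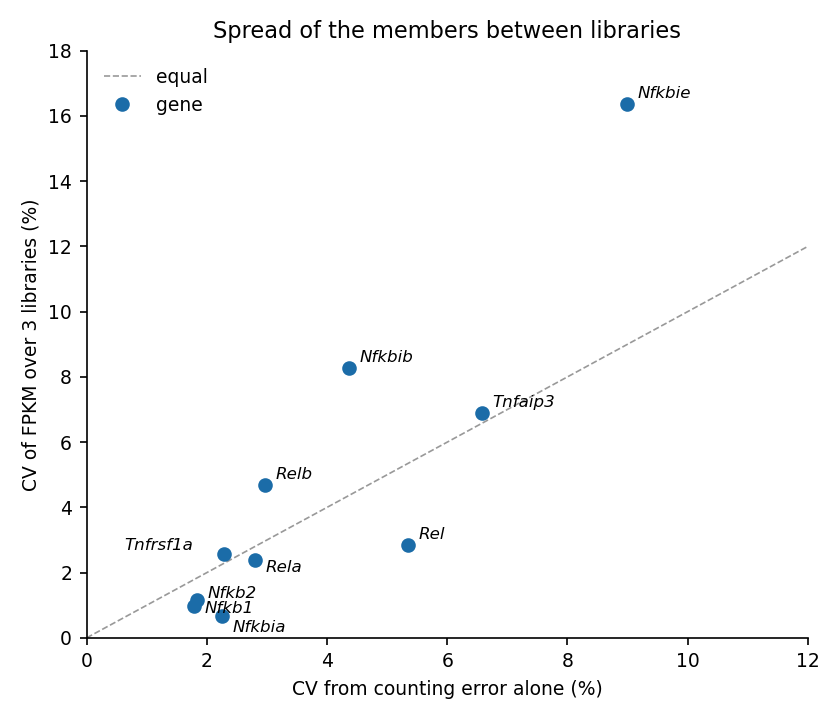
CV of FPKM over the 3 libraries against the CV expected from counting error alone, both in percent, for each gene, with a dashed line where both are equal. Nfkbie (16.4% against 8.99%), Nfkbib (8.27% against 4.36%) and Relb (4.69% against 2.97%) lie clearly above the line, and Nfkbia (0.675% against 2.25%) below it.

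The highest FPKM was found in library 1 for 6 of the 10 genes, namely Rela, Relb, Rel, Nfkbia, Nfkbie and Tnfaip3, against 34.8% of the 13643 genes. Library 3 was the highest for Nfkb1, Nfkbib and Tnfrsf1a, against 30.7% of genes, and library 2 for Nfkb2 alone, against 34.6%. For Nfkbia, Rela and Rel the index was below 1, at 0.0908, 0.728 and 0.287. For Tnfaip3 it was 1.11, with a CV of 6.90% against 6.58% from counting error alone.

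Further genes of the pathway were taken from lists ordered by role, which were chosen with earlier results of these data known. The receptor list also holds Tnfrsf1a. Beside these lists, the 10 genes described above had a median of 56.2 FPKM. Of protein-coding genes, 49.2% averaged at least 1 FPKM. Of 9 ligand genes, 1 averaged at least 1 FPKM, Tnfsf12, the gene of the cytokine TWEAK, at 3.66 ± 0.385 (SD, n = 3). Tnf, Il1b, Cd40lg and Tnfsf11 had no fragment in any library, which allows up to 0.139 FPKM for Tnf and 0.266 FPKM for Il1b at a floor of 3 fragments per library. The median of the ligand list was 0.0405 FPKM. The receptor list held 9 of 12 genes at or above 1 FPKM. Its highest was Tnfrsf12a, the receptor of TWEAK, at 298 ± 4.06 FPKM, and its lowest was Tnfrsf11a, with 1 fragment in all. Tnfrsf1a was the second highest receptor at the deposited gene lengths, and the order of the receptors at other lengths was not tested. The median of the receptor list was 28.3 FPKM.

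Between receptor and inhibitor, transcripts of 19 of 19 adaptor and ubiquitin enzyme genes averaged at least 1 FPKM, against the 49.2% of protein-coding genes given above. They ranged from the kinase adaptor Tab2 at 108 ± 1.63 to Traf5 at 5.00 ± 0.426 FPKM (SD, n = 3). The same held for 8 of 8 genes of kinases and inhibitor degradation, from Tbk1 at 72.1 ± 0.211 to Map3k14, the kinase that starts p100 processing, at 10.1 ± 0.139 FPKM. The genes of the I kappa B kinase complex were named after their values were seen. Chuk, a catalytic subunit, had 65.3 ± 0.985 FPKM, Ikbkb, the other catalytic subunit, 29.6 ± 1.19, and Ikbkg, the scaffold, 17.2 ± 0.115.

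Of 7 other inhibitors and brakes, 6 had at least 1 FPKM, against 49.2% of protein-coding genes. Bcl3, an atypical inhibitor that binds p50 and p52 in the nucleus, was the highest at 34.4 ± 3.68 FPKM, with 38.5 in library 1, 33.2 in library 2 and 31.5 in library 3. These values were above those of Nfkbie in each library. Nfkbib was also lower in each, but in library 3 its 95% interval of 28.5 to 33.6 FPKM held the value of Bcl3. Nfkbid was the lowest at 0.740 ± 0.277 FPKM from 52 fragments in all.

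Known target genes were spread over the whole range, with 12 of 16 at 1 FPKM or more, against 49.2% of protein-coding genes. Their median was 31.8 FPKM. Csf1, the gene of macrophage colony-stimulating factor, had 397 ± 5.25 FPKM (SD, n = 3), more than any of the 10 genes. Cxcl2, the gene of a neutrophil chemokine, had no fragment, which allows up to 0.158 FPKM at a floor of 3 fragments. The chemokine gene Ccl2 and the adhesion gene Icam1, also named after their values were seen, stood at 360.2 ± 6.94 and 0.0300 ± 0.0302 FPKM, the latter from 3 fragments. Most of these genes have regulators besides NF-kB, and their levels in 1 condition give no measure of its activity.

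**Figure D4:**
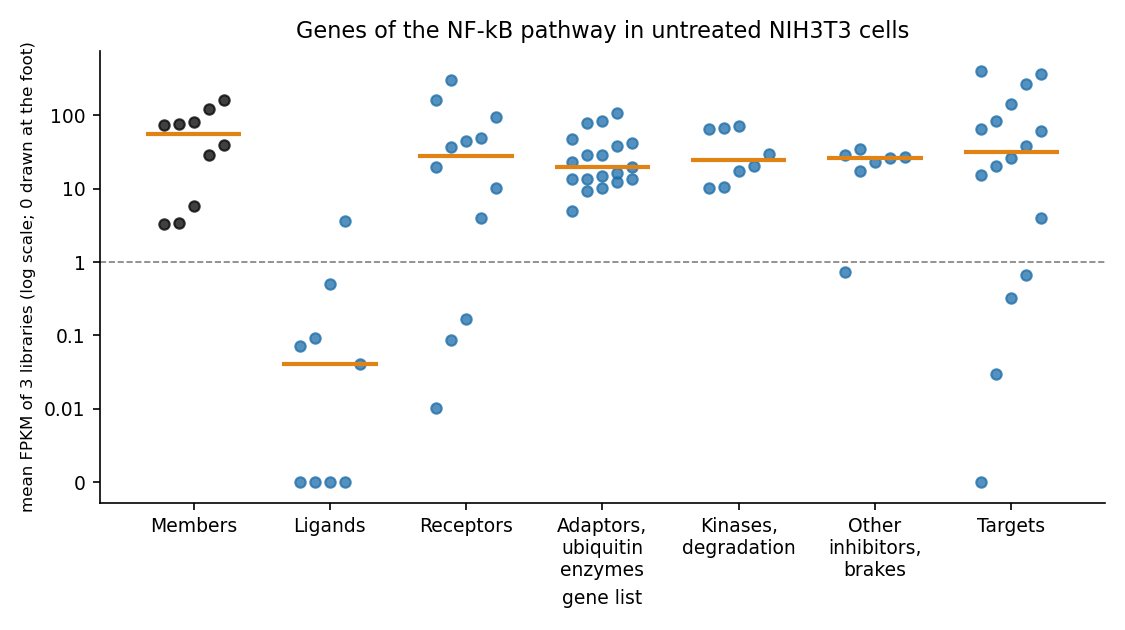
Mean FPKM of 3 libraries (log axis, with genes at 0 drawn at the foot) for the 10 genes described and for 6 lists of pathway genes, with the median of each list as a bar and the limit of 1 FPKM dashed. Ligand genes lie at or below 3.66 FPKM, while 8 of 8 kinase and degradation genes and 19 of 19 adaptor genes lie above 1 FPKM. Of protein-coding genes, 49.2% reach this limit. Tnfrsf1a is drawn both among the 10 genes and among the receptors.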

How the data were processed

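UMI-RNAseq was performed on 3 libraries of NIH3T3 cells without a named stimulus. Per the methods and the labels, UMIs were extracted with UMI-tools 1.0.0, reads were mapped with HISAT2 2.0.4, reads at 1 location with the same UMI were removed, and reads per gene were counted with HTSeq 0.6.1. The authors deposited FPKM values, 1 column per library, without pooling. The build and annotation of the counting are not given in the sources used here. All columns were used, so 0 were left out.

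Fragments were recovered from FPKM with Python 3.11.15, numpy 2.4.6, pandas 2.3.3 and the mean isoform length in GENCODE M21 (GRCm38). Of 26193 genes above 0, 25969 (99.1%) gave whole numbers in each library within 0.01 of a fragment, the 10 genes included. The step was tested on simulated data. Intervals are exact Poisson 95% intervals (scipy 1.17.1) and, like the floors, cover counting error only. Log2 ratios carry no pseudocount. No count model was fitted, since there is 1 condition. Figures were drawn with matplotlib 3.10.9.

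The members, lists and pairs were chosen with earlier results of these data known. The genes named are the 10 genes, the highest and lowest of each list and those at 0 throughout the pathway lists, while genes with overlapping exons and those marked as named after their values were seen lie outside this rule. The alternatives were leaving out each replicate, the median over libraries, a pseudocount, TPM and median-of-ratios scaling, other limits on FPKM and other gene lengths.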

Additional observations from a re-analysis of the deposited data

How the results depend on the processing

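Under the alternatives 218 values were computed. In 199 cases a ratio held its sign, a level stayed within 1 SD of its value, or a count stayed within a factor of 1.5. Many of these outcomes were fixed in advance, so the number is no measure of robustness. Leaving out 1 of 3 libraries or taking their median cannot move a mean by 1 SD. Neither can turn a ratio that has the same sign in all libraries, and a pseudocount cannot turn any sign. The cause of the changes in the remaining cases was not tested, apart from what each setting's construction shows. With the longest annotated isoform, the log2 ratio of Nfkb2 over Nfkb1 was 0.031 against -0.09, that of Tnfrsf1a over Nfkbia -0.50 against 0.38, that of Tnfaip3 over Nfkbie -0.15 against 0.79, and that of Nfkbie over Rel -0.18 against 0.03. The order then held for 5 of the 9 neighbouring pairs. Nfkbie over Rel also turned to -0.034 for the median over libraries, and leaving out single libraries gave -0.074 (without library 1) to 0.11 (without library 3), so library 1 decides its sign. The other role ratios kept their sign under each setting tried, though the longest isoform moved Rel over Rela to -3.32 against -4.47. No p could pass 0.05, since 2 libraries cannot give a p below 0.5 and 3 cannot give one below 0.25. Rescaling to TPM multiplied each library by 1.43 to 1.46 and so moved the 10 levels without changing their ratios, whereas median-of-ratios factors lay between 0.998 and 1.00. The number of ligand genes past the limit was 1 at 1 FPKM, 0 at 5 FPKM and 4 with any fragment in all libraries. The number of genes with a spread index above 1 was 4 without library 1, 2 or 3, against 33.6%, 36.7% and 37.2% of all genes tested. No paired comparison of conditions was possible because the libraries form a single group. Depth limits Nfkbie the most, with 110 to 151 fragments per library.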
